A study of Mus musculus with 12 samples.

Results

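Snai1, Snai2, Zeb1, Zeb2, Twist1, Twist2, Prrx1, Prrx2, Meox2 and Tcf4 encode transcription factors of mesenchymal cells and of the switch between epithelial and mesenchymal states. These 10 genes were chosen by name from 19938 genes measured on 12 arrays. All 10 were measured, each by 1 probe set that no other gene shared. Gene expression was measured in mouse embryonic fibroblasts (MEFs), connective tissue cells grown from embryos, of a cross between OG2 and 129/sv mice. OG2 mice carry a green fluorescent protein gene under Pou5f1 control. On 6 arrays the cells had been infected with SKO, which the labels explain only as the route to induced pluripotent stem (iPS) cells and which is read here as Sox2, Klf4 and Oct4, the protein of Pou5f1. These cells also received a retrovirus with microRNA cluster C, microRNA cluster B or a blank control virus, and were lysed at day 4 or day 8 after the first infection. On the other 6 arrays MEFs without SKO had received the same 3 viruses and were lysed on the same days. All cells were kept in mouse embryonic stem cell medium, and feeder cells were removed before RNA was extracted. Each of the 12 combinations had 1 array, so no condition was replicated. Cell type, arm, virus and day were taken from the titles, sources and characteristics, since a free-text description that all 12 samples share names pre-iPS cells and another day. Titles of the arm without SKO carry the tag Group2, so SKO and this grouping cannot be told apart.

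Snai1 and Snai2 (Snail and Slug) are zinc finger repressors that bind E-box motifs in the promoters of epithelial genes such as Cdh1, which encodes E-cadherin. Zeb1 and Zeb2 are zinc finger and homeodomain repressors of the same kind of target and are themselves repressed by microRNAs of the miR-200 family. Twist1 and Twist2 are basic helix-loop-helix factors that pair with E-proteins, and Tcf4 encodes such an E-protein (E2-2), not the Wnt effector of a similar name. Prrx1 and Prrx2 are homeobox factors of limb and face mesenchyme, and Meox2 is a homeobox factor of the somites that is also known from vascular smooth muscle. Fibroblasts carry a mesenchymal programme, and its exchange for an epithelial one is known as an early event of reprogramming to pluripotency.

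Sequences just upstream of 3 gene starts are shown because the E-box recognised by the Snail and Zeb factors can be looked for in them: Snai1, which was much lower with SKO, Meox2, the member with the largest difference, and Epcam, the epithelial gene with the largest rise at day 8. They were taken from RefSeq on build GRCm38.p6, cover the 250 bases before the start, and lie at chr2:167537945-167538194, chr12:37108290-37108539 and chr17:87635729-87635978, all on the plus strand. Capitals mark the E-box CACCTG or, on the other strand, CAGGTG.
Snai1: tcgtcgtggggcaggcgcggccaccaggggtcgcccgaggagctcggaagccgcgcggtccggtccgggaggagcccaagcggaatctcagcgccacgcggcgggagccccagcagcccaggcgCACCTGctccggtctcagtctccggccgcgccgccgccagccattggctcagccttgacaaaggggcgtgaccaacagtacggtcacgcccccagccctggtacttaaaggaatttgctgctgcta
Meox2: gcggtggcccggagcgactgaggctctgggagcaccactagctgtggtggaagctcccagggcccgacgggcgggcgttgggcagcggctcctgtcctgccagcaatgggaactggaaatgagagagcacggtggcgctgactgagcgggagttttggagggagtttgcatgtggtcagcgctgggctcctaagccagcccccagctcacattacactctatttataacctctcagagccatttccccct
Epcam: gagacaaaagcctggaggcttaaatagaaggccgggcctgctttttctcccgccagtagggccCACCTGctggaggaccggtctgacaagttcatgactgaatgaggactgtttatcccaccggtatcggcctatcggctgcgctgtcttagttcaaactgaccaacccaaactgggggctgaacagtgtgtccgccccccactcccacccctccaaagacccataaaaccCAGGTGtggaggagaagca
The Snai1 window held 1 E-box, 126 bases upstream, and the Epcam window held 2, at 187 and 19 bases upstream. The window of Meox2 held none. Upstream windows were read for 7 members, not for Snai2, Zeb1 and Tcf4, and 1 of the 7, Snai1, held an E-box. This is near the share over all windows, where 17.2% of 32851 windows of the same length held one. Members were counted by gene, Zeb2 with several windows, and the share was counted by window. The search over members left out 1 chromosome that the share over all windows kept, so the unread members include any that lie on it. The octamer ATGCAAAT, known as a core of Oct4 binding, or its reverse complement ATTTGCAT, was in none of the 7 members and in 1.6% of all windows. A match or its lack describes these letters only.

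The microRNAs shown here are of the miR-200 family, which restrains Zeb1 and Zeb2, and fall into 2 seed groups. Their mature sequences, from RefSeq, are given with bases 2 to 8, the seed, in capitals.
mmu-miR-200a-3p: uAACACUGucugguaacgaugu
mmu-miR-141-3p: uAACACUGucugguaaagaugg
mmu-miR-200b-3p: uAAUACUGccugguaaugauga
mmu-miR-200c-3p: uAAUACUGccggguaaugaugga
The first pair shares the seed AACACUG and the second pair shares AAUACUG. Their probe sets were dim, and whether these read mature microRNAs or longer transcripts is not known here. Mir200b lay between 2.52 and 3.19 on the log2 scale, Mir200c between 2.87 and 3.37 and Mir141 between 1.84 and 2.42, all below the lowest array lower quartile of 3.48. Mir200a lay between 3.76 and 4.58. None of the 8 microRNA genes measured, with Mir205 and the Mir34 genes, passed the test between SKO and no SKO at day 4 or day 8.

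All values are log2 expression as deposited, and their array medians lay between 4.98 and 5.07. Pou5f1, taken as delivered, read at least 11.60 with SKO and at most 4.56 without SKO. Klf4 lay at 8.6 to 8.9 in the arm given SKO, against 6.9 to 7.2 in the other arm. For Sox2 the gap was smaller. Its values were 4.55 to 5.18 in the arm not given SKO. They were 5.34 to 6.04 on SKO arrays other than that of cluster C at day 8, which read 7.55. Delivery of Sox2 is thus less clear from these values than that of Pou5f1. Among 11 fibroblast markers measured (of 12 listed), 10 lay above the array median on all arrays, in both arms. The summed linear signal of these markers was 10923 to 13246 with SKO at day 4 and 9331 to 11303 at day 8, against 21911 to 22374 and 26894 to 28532 without SKO. Of the 11, 1 was higher and 7 were lower with SKO at day 4, and at day 8 none was higher and 9 were lower. In these bulk samples fewer fibroblasts and less RNA per cell cannot be told apart. Sums over 12 muscle markers were 2489 to 3030 with SKO at day 4 and 2014 to 2270 at day 8, against 5539 to 6212 and 5602 to 5743 without SKO. Most of these muscle sums was Acta2, which averaged 10.8 with SKO and 12.1 without SKO. It is also in the mesenchymal list below, and the muscle sums were not taken without it. Of the 12 muscle markers, 6 were lower with SKO at day 4 and 8 at day 8, and none was higher. Sums over 14 pluripotency markers were 257 to 301 at day 4 and 534 to 2914 at day 8 with SKO, against 238 to 284 and 253 to 267 without SKO. The highest sum was that of 1 array, SKO with cluster C at day 8. There Dppa5a read 10.22 and Tdgf1 9.37, against at most 6.82 and 6.18 on any other array. Of the 14, 1 was higher with SKO at day 4 and 6 at day 8, and none was lower. Tcl1 stayed below the lower quartile on all arrays. The sums moved with the values below, and their part in those values was not tested. No member fell below the lower quartile of any array, and Meox2 was below the median on 2 arrays, both without SKO.

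The first question was how the factors stood in cells given SKO relative to cells without it. With SKO, 5 of the 10 genes were lower at day 4 (Snai1, Snai2, Zeb1, Twist2 and Prrx2) and 7 at day 8, when Zeb2 and Prrx1 joined them. Meox2 went the other way and was 6.55-fold higher at day 4 and 3.84-fold higher at day 8. Tcf4 passed as higher at day 8, and Twist1 passed on neither day. The share of all genes that passed was 9.52% higher and 9.40% lower at day 4, and 13.4% higher and 12.7% lower at day 8. The members' median log2 difference was -0.39 at day 4 and -0.46 at day 8, against -0.04 and -0.07 over all genes. Genes passed at a limma adjusted p under 0.05. In the plot of the 10 genes on every array, and in the sentences below, values are listed for cluster C, cluster B and blank virus.

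**Figure D1:**
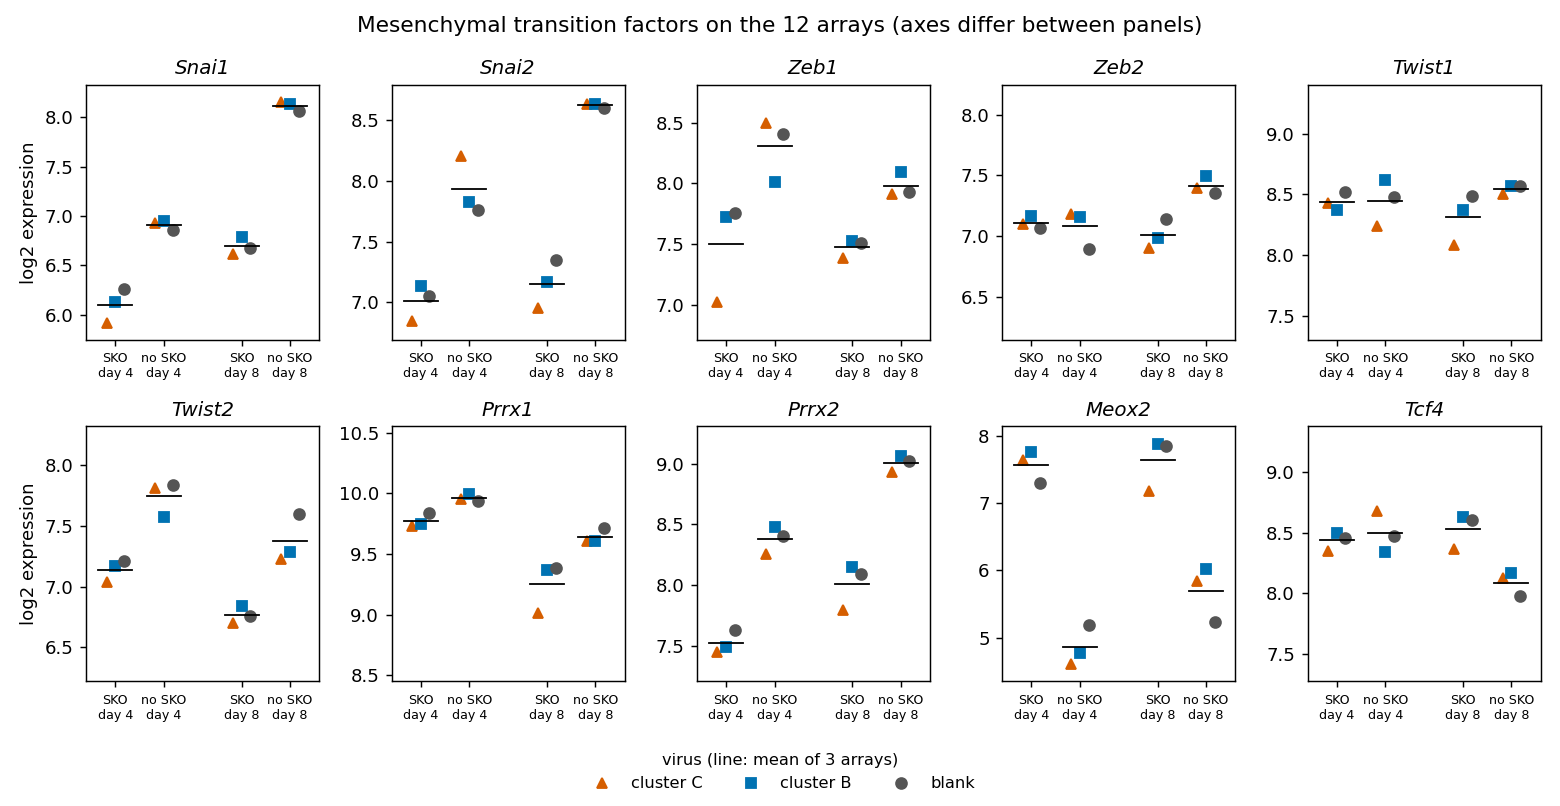
Log2 expression of the 10 transition factors on the 12 arrays, in 4 groups (SKO and no SKO at day 4, SKO and no SKO at day 8). Points are single arrays, marked by virus, and the line is the mean of the 3 arrays. Vertical axes differ in position between panels. Snai1, Snai2, Zeb1, Twist2 and Prrx2 lie lower on all 6 arrays with SKO than on all 6 without, and Meox2 lies higher.

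Both Snail genes were lower with SKO, and the gap was widest at day 8. At day 4 Snai1 read 5.92, 6.13 and 6.26 with SKO, against 6.93, 6.95 and 6.86 without SKO. At day 8 it read 6.61, 6.79 and 6.67 with SKO, against 8.15, 8.13 and 8.06 without SKO. Every array with SKO lay below every array without it, also across days, and within a day the gap was larger than the spread among the viruses. The log2 difference was -0.81 ± 0.10 (SE; limma adjusted p = 0.000557) at day 4 and -1.42 ± 0.10 (adjusted p = 1.2e-05) at day 8. These are 1.75-fold and 2.68-fold lower levels.

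Snai2 read 6.85, 7.14 and 7.05 with SKO at day 4, against 8.21, 7.83 and 7.76 without SKO. At day 8 its values were 6.95, 7.17 and 7.35 with SKO, against 8.64, 8.64 and 8.60 without SKO. The arms did not overlap, and the 3 arrays without SKO at day 8 had an SD of 0.02. The difference was -0.92 ± 0.12 (SE; limma adjusted p = 0.000635) at day 4 and -1.47 ± 0.12 (adjusted p = 2.37e-05) at day 8, a 2.77-fold lower level at day 8. Both Snail calls held without any 1 of the 12 arrays on both days.

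Zeb1 was also lower with SKO, with more scatter. It read 7.03, 7.73 and 7.75 with SKO at day 4, against 8.50, 8.02 and 8.41 without SKO. Its day 8 values were 7.38, 7.53 and 7.51 with SKO, against 7.92, 8.09 and 7.93 without SKO. The 6 arrays with SKO lay below the 6 without, and the lowest value of all was that of SKO with cluster C at day 4. The difference was -0.80 ± 0.16 (SE; limma adjusted p = 0.00775) at day 4 and -0.51 ± 0.16 (adjusted p = 0.0472) at day 8. The day 4 call was lost without the array of SKO with cluster C (-0.61, adjusted p = 0.0527), of blank virus without SKO (-0.73, adjusted p = 0.0514) or of cluster C without SKO (-0.68, adjusted p = 0.0649), all of day 4. The day 8 call was lost in a fit without the interaction of SKO with virus (adjusted p = 0.0599). It held without 3 of the 12 arrays only, and the difference was -0.31 (adjusted p = 0.232) without the day 8 array of cluster B without SKO.

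Zeb2 was close to level at day 4. It read 7.10, 7.17 and 7.07 with SKO at that time, against 7.18, 7.16 and 6.89 without SKO. At day 8 the values were 6.90, 6.98 and 7.14 with SKO, against 7.39, 7.49 and 7.35 without SKO. The groups overlapped at day 4 and not at day 8. The difference was 0.03 (95% interval -0.21 to 0.27; limma adjusted p = 0.878) at day 4 and -0.41 ± 0.11 (SE; adjusted p = 0.0203) at day 8. The day 8 call did not hold once a day 8 array of cluster B or C with SKO, or of blank virus or cluster B without SKO, was left out, and the difference lay between -0.35 and -0.41 (adjusted p of 0.0695 to 0.114).

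The Twist pair split. Twist2 read 7.04, 7.17 and 7.21 with SKO at day 4, against 7.82, 7.58 and 7.84 without SKO. At day 8 it read 6.70, 6.84 and 6.76 with SKO, against 7.23, 7.29 and 7.60 without SKO. All 6 arrays with SKO lay below the 6 without, by -0.60 ± 0.11 (SE; limma adjusted p = 0.00404) at day 4 and -0.61 ± 0.11 (adjusted p = 0.00289) at day 8. Twist1 read 8.43, 8.37 and 8.52 with SKO at day 4, against 8.24, 8.62 and 8.48 without SKO. Its day 8 values were 8.08, 8.37 and 8.48 with SKO, against 8.50, 8.57 and 8.56 without SKO. Its arms overlapped at day 4 and lay just apart at day 8, where the array of SKO with cluster C was lowest. The 95% interval of its difference was -0.26 to 0.25 (limma adjusted p = 0.985) at day 4 and -0.49 to 0.02 (adjusted p = 0.165) at day 8.

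Prrx2 was lower with SKO on both days and Prrx1 on day 8. Prrx2 read 7.45, 7.49 and 7.63 with SKO at day 4, against 8.25, 8.48 and 8.41 without SKO. At day 8 its values were 7.79, 8.15 and 8.09 with SKO, against 8.93, 9.07 and 9.02 without SKO. No array with SKO reached the arm without SKO, and the difference was -0.86 ± 0.10 (SE; limma adjusted p = 0.000447) at day 4 and -0.99 ± 0.10 (adjusted p = 0.000116) at day 8. Prrx1 read 9.73, 9.75 and 9.84 with SKO at day 4, against 9.95, 9.99 and 9.94 without SKO. Its day 8 values were 9.01, 9.37 and 9.39 with SKO, against 9.60, 9.60 and 9.71 without SKO. The arms did not overlap within either day, but the difference at day 4 did not pass (-0.19, 95% interval -0.42 to 0.06; limma adjusted p = 0.286). At day 8 it was -0.39 ± 0.11 (SE; adjusted p = 0.0261). That call was lost without any 1 of 5 of the 6 day 8 arrays, all but that of SKO with cluster B, with differences of -0.29 to -0.42 (adjusted p of 0.061 to 0.158).

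Meox2 was the member with the largest difference and the only one higher on both days. At day 4 it read 7.64, 7.76 and 7.30 with SKO, against 4.60, 4.78 and 5.18 without SKO. At day 8 it read 7.18, 7.89 and 7.85 with SKO, against 5.84, 6.03 and 5.23 without SKO. The lowest array with SKO lay above the highest without by more than the range within the arm with SKO, but by less than the range within the arm without SKO. The difference was 2.71 ± 0.25 (SE; limma adjusted p = 0.000104) at day 4 and 1.94 ± 0.25 (adjusted p = 0.000484) at day 8, and the call held without any 1 array. Summed endothelial and neural markers also stood higher with SKO. The 12 endothelial markers summed to 622 to 639 (day 4) and 760 to 808 (day 8), against 364 to 377 and 417 to 471 without SKO. For 10 neural markers the sums were 1246 to 1443 and 995 to 1157, against 461 to 506 and 471 to 488. Those of 12 leukocyte markers were not higher, at 411 to 481 and 466 to 491 with SKO, against 411 to 492 and 599 to 674. The muscle sums given above were lower with SKO. In the endothelial and neural lists, most of the higher sum was 1 gene. In the endothelial list Tek was higher on both days (by 3.87 and 3.58), while 2 genes were lower at day 4 and 3 at day 8, and Emcn stayed below the lower quartile on all arrays. Without Tek, a choice made after its values were seen, the other 11 summed to 311 to 337 and 368 to 379 with SKO, against 346 to 350 and 386 to 429 without SKO. In the neural list Stmn2 (by 2.11 and 1.81) and Nes (by 0.59 and 0.36) were higher on both days, while Sox10 and Snap25 were lower at day 8, when 8 of the 10 lay below 0, and Foxd3 stayed below the lower quartile on all arrays. Without Stmn2, left out in the same way, the other 9 summed to 255 to 295 and 201 to 223 with SKO, against 228 to 252 and 221 to 240 without SKO.

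Tcf4 read 8.35, 8.50 and 8.46 with SKO at day 4, against 8.68, 8.35 and 8.47 without SKO. Its day 8 values were 8.37, 8.63 and 8.61 with SKO, against 8.13, 8.17 and 7.97 without SKO. The arms overlapped at day 4 and were apart at day 8. The difference was -0.06 (95% interval -0.31 to 0.18; limma adjusted p = 0.763) at day 4 and 0.44 ± 0.11 (SE; adjusted p = 0.0156) at day 8. The day 8 call did not hold once a day 8 array of cluster B or blank virus with SKO, or of cluster C or blank virus without SKO, was left out, and the difference lay between 0.37 and 0.43 (adjusted p of 0.0658 to 0.101).

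**Figure D2:**
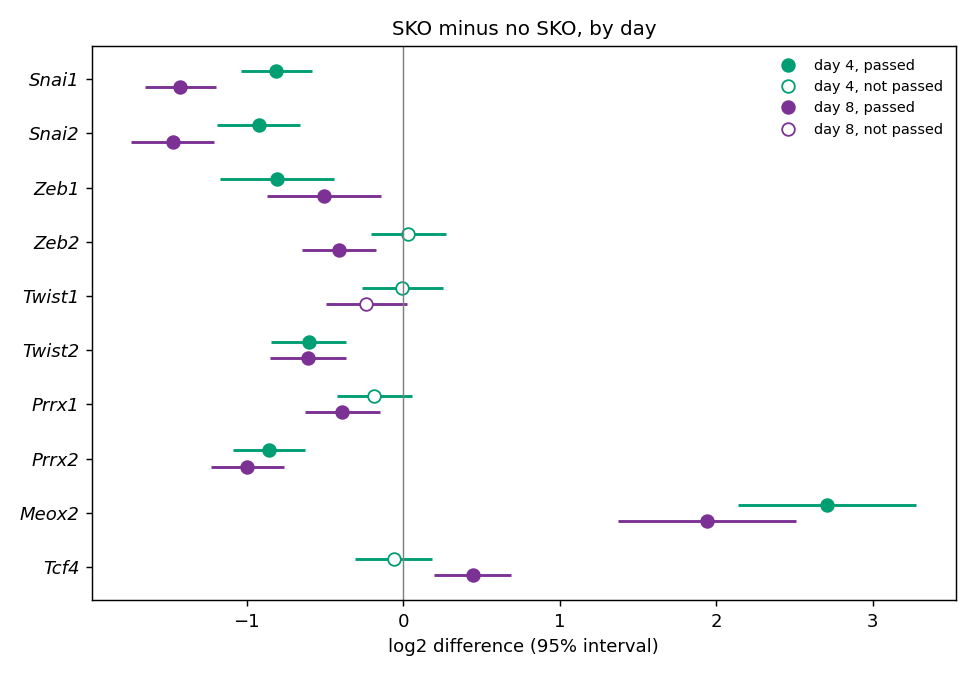
Log2 difference of SKO minus no SKO for the 10 genes at day 4 and day 8, with 95% intervals from limma. Filled points passed an adjusted p of 0.05 and open points did not. Meox2 lies far to the right at 2.71 and 1.94, and Snai1 and Snai2 lie farthest to the left at day 8, at -1.42 and -1.47.

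Over both days, 5 members did not overlap between the arms and were lower with SKO, and 1 was higher. Of all genes, 7.10% were lower and 7.48% higher in the same way. When a change of more than 1.5-fold was required, Meox2 alone passed at day 4, and Snai1, Snai2, Prrx2 and Meox2 passed at day 8. The share of all genes that met this requirement is not given here, so these member calls have no background beside them.

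Pairs of related genes were then compared within each array, to ask whether SKO moved both alike. Zeb1 fell relative to Zeb2: the log2 difference between them averaged 0.43 with SKO and 0.90 without SKO, a change of -0.47 (exact permutation test within days, two-sided, p = 0.01, adjusted over 4 pairs 0.0133). Twist2 fell relative to Twist1, with averages of -1.42 with SKO and -0.94 without SKO, a change of -0.48 (exact permutation p = 0.005, adjusted 0.01). Prrx2 fell relative to Prrx1, with averages of -1.75 with SKO and -1.11 without SKO, a change of -0.64 (exact permutation p = 0.005, adjusted 0.01). The smallest p that the 400 permutations can give is 0.005. The permutations moved arrays freely between the arms within a day and did not keep the matching by virus. They thus treat arrays with different viruses as replicates of an arm, although no condition was replicated. A test that kept the matching has fewer permutations and a larger smallest p, and it was not run. In each of these 3 pairs the change had this sign in 6 of 6 matched arrays. For Zeb it lay between -1.38 and -0.30 at day 4 and between -0.20 and -0.04 at day 8, whereas for Prrx it lay between -0.75 and -0.54 on all 6. The Snail genes showed a change of 0.08 with mixed signs, below 0 in 2 of 6 matched arrays (exact permutation p = 0.39, adjusted 0.39).

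Genes that work with these factors were read from lists. Of 25 measured relatives and partners, 5 were higher and 6 lower with SKO at day 4, and 2 were higher and 8 lower at day 8, with medians of -0.09 and -0.27. Msc, which encodes the basic helix-loop-helix repressor musculin, was 1.98 higher at day 4 and 1.14 higher at day 8. Sox4, an HMG box factor, was lower (-1.58 at day 4 and -1.04 at day 8), as were Sox9, the cartilage and neural crest factor (-0.76 and -1.34), and Meox1, the relative of Meox2 (-0.99 and -1.12). Meox1 was dim with SKO, at 3.36 to 3.96, and below the lower quartile on 1 of these arrays, so the size of its difference is uncertain. Klf8 and Etv4 were higher at day 4, by 0.75 and 0.71, and Tbx2 was higher at day 8, by 0.86. Tcf12, a further E-protein, had a difference of 0.36 at day 8 and did not pass (limma adjusted p = 0.0813).

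Of 20 co-repressors and turnover genes, 4 were higher and 1 lower at either day, with medians of 0.08 at day 4 and 0.07 at day 8. Ezh2, the histone methyltransferase of the Polycomb complex, was 0.69 and 0.50 higher, and Ctbp2, a co-repressor of Zeb factors, was 0.37 and 0.61 higher. Lats2, a Hippo kinase, was 0.48 higher at day 4, and Sin3a, a scaffold of histone deacetylases, was 0.48 higher at day 8. Btrc, of the ubiquitin ligase that degrades Snai1, was 0.39 lower at day 4, and Usp27x, a deubiquitinase of Snai1, was 0.46 lower at day 8.

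TGF-beta signals are known to induce Snail and Zeb genes. Of 25 genes of this input, 1 was higher and 8 lower at day 4, and 1 was higher and 11 lower at day 8, with medians of -0.21 and -0.25. The ligand gene Tgfb3 was lower (-1.35 at day 4 and -1.82 at day 8), as was the co-receptor gene Tgfbr3 (-1.35 and -1.08). Ltbp1, a latent TGF-beta binding protein, was 0.81 lower with SKO at day 4, and Bmp4 was 0.98 lower with SKO at day 8. Skil, an inhibitor of Smad signalling, was the gene that was higher with SKO, by 0.37 and 0.73.

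Among 35 genes of epithelial junctions, keratins and epithelial regulators, 11 were higher and 2 lower with SKO at day 4. At day 8, 25 were higher and 1 lower, and the median moved to 0.65 at day 8, against 0.07 at day 4. Cdh1, the classic target of the Snail and Zeb repressors, lay between 5.05 and 5.72 with SKO at day 4 and between 6.34 and 7.19 at day 8, against 4.06 to 4.18 and 4.36 to 4.60 without SKO. Its difference was 1.23 ± 0.11 at day 4 (SE; limma adjusted p = 7.09e-05) and 2.24 ± 0.11 at day 8 (adjusted p = 1.46e-06). Dsp, which encodes desmoplakin, was 2.15 and 2.82 higher, and the adhesion gene Epcam was 1.01 and 3.49 higher. Cdh3, which encodes P-cadherin, went against the list, with -2.19 at day 4 and -2.10 at day 8. Krt7 was 0.70 lower with SKO at day 4 and 1.24 higher at day 8. The summed epithelial markers stood at 467 to 554 and 903 to 1548 with SKO, against 411 to 430 and 423 to 460 without SKO.

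Of 30 mesenchymal genes, 2 were higher and 21 lower with SKO at day 4, and 1 was higher and 23 lower at day 8, with medians of -0.80 and -1.03. Pdgfra, the platelet-derived growth factor receptor of fibroblasts, fell by 2.19 at day 4. Lox, the collagen crosslinking enzyme, was lower on both days (-1.84 and -1.62), and so was Postn, a matrix protein gene (-1.81 and -2.64). Lum, a collagen-binding proteoglycan gene, was 3.01 lower at day 8. It lay at 8.5 to 8.6 at day 4 and 8.4 to 8.5 at day 8 with SKO, against 9.8 to 9.9 and 11.4 to 11.5 without. Mmp3, a secreted metalloproteinase gene, was 1.62 and 0.58 higher. Dcn was 0.47 higher at day 4 and 0.50 lower at day 8, although it was higher at day 8 than at day 4 in both arms. Its values were 9.36 to 9.58 and 9.70 to 10.04 with SKO, against 8.97 to 9.05 and 10.28 to 10.52 without. This list shares genes with the fibroblast markers, whose sums are given above.

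**Figure D3:**
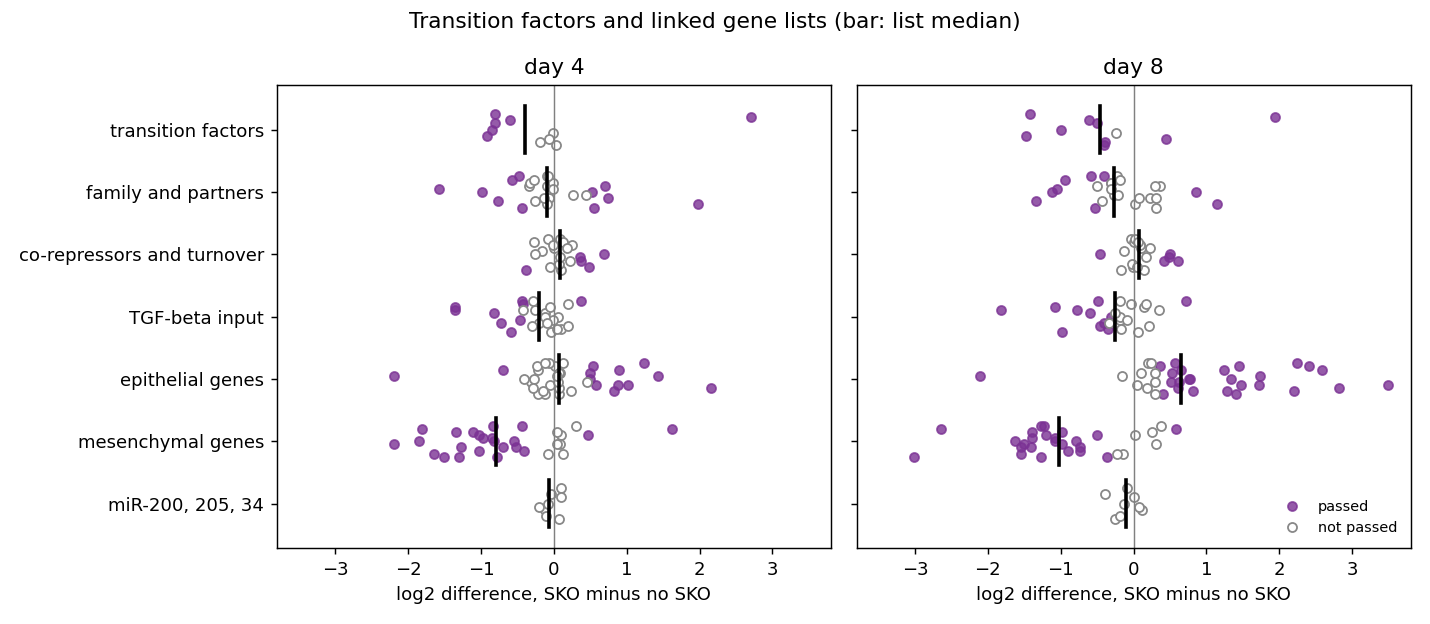
Log2 difference of SKO minus no SKO at day 4 (left) and day 8 (right) for the transition factors and 6 linked gene lists. Each point is a gene, filled where it passed an adjusted p of 0.05, and the bar is the list median. Epithelial genes move to the right at day 8 (median 0.65, against 0.07 at day 4), and mesenchymal genes lie to the left on both days.

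The second question was how the factors changed between day 4 and day 8. In cells with SKO, Snai1 and Prrx2 were higher at day 8 and Prrx1 was lower, and in cells without SKO Snai1, Snai2 and Prrx2 were higher. Of all genes, 5.24% were higher and 3.66% lower at day 8 with SKO, and 4.05% and 4.63% without SKO. Snai1 averaged 6.69 ± 0.09 at day 8 and 6.10 ± 0.17 at day 4 with SKO (SD over 3 viruses), and 8.12 ± 0.05 at day 8 and 6.91 ± 0.04 at day 4 without SKO. Its day difference was 0.59 ± 0.10 with SKO (SE; limma adjusted p = 0.00825) and 1.20 ± 0.10 without SKO (adjusted p = 0.000275). Snai1 thus rose with time in cells with SKO while it stayed below its level in cells without SKO.

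Snai2 averaged 7.16 ± 0.20 at day 8 and 7.01 ± 0.15 at day 4 with SKO, a difference of 0.14 (limma adjusted p = 0.545). Without SKO it averaged 8.63 ± 0.02 at day 8 and 7.93 ± 0.24 at day 4, a difference of 0.69 ± 0.12 (SE; limma adjusted p = 0.00936). Prrx2 was 0.49 ± 0.10 higher at day 8 with SKO (limma adjusted p = 0.02) and 0.63 ± 0.10 higher without SKO (adjusted p = 0.00829). Prrx1 went the other way, with -0.52 ± 0.11 with SKO (limma adjusted p = 0.0179) and -0.32 ± 0.11 without SKO (adjusted p = 0.1). Twist2 had like values in both arms, -0.37 with SKO and -0.37 without SKO, and passed in neither (limma adjusted p = 0.0635 and 0.0655). Without SKO, Tcf4 (-0.41, limma adjusted p = 0.0503), Meox2 (0.84, adjusted p = 0.0731) and Zeb2 (0.34, adjusted p = 0.0852) missed the threshold.

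Several of these calls rest on single arrays or on the model. When the arm with SKO was fitted alone, Prrx2 no longer passed for day (0.49, limma adjusted p = 0.0537). With SKO, the Snai1 call was lost without either array of cluster B or C (0.55 and 0.54, limma adjusted p = 0.0634 and 0.0522), the Prrx2 call without either array of blank virus or cluster B (0.50 and 0.40, adjusted p = 0.0977 and 0.127) and the Prrx1 call without any 1 of the 6 arrays with SKO (-0.59 to -0.42). Without SKO, the Snai1 call held throughout, the Snai2 call was lost without either array of blank virus or cluster B (0.62 and 0.64, limma adjusted p = 0.0666 and 0.0594), and the Prrx2 call without either array of cluster C (0.60, adjusted p = 0.0602).

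The difference in day change between the arms was tested as an interaction. No member passed, against 2.97% of all genes. An unadjusted limma p under 0.05 was found for 4 of the 10 members and for 3459 of all 19938 genes. Snai1 came nearest, with a day change that differed by -0.61 ± 0.14 with SKO (SE; limma adjusted p = 0.0577), followed by Snai2 at -0.55 ± 0.17 (adjusted p = 0.125), Tcf4 at 0.50 ± 0.15 (adjusted p = 0.129) and Zeb2 at -0.44 ± 0.15 (adjusted p = 0.169). Snai1 passed under quantile normalization (-0.67, limma adjusted p = 0.0417) and with dim genes left out (adjusted p = 0.0285). With a mean-variance trend Snai1 (limma adjusted p = 0.00953), Snai2 (adjusted p = 0.0218) and Tcf4 (adjusted p = 0.0166) passed. Among the linked lists, 11 of 35 epithelial genes passed this test and all 11 had the larger day change with SKO, Epcam by 2.48, while 1 of 30 mesenchymal genes was higher and 7 were lower.

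**Figure D4:**
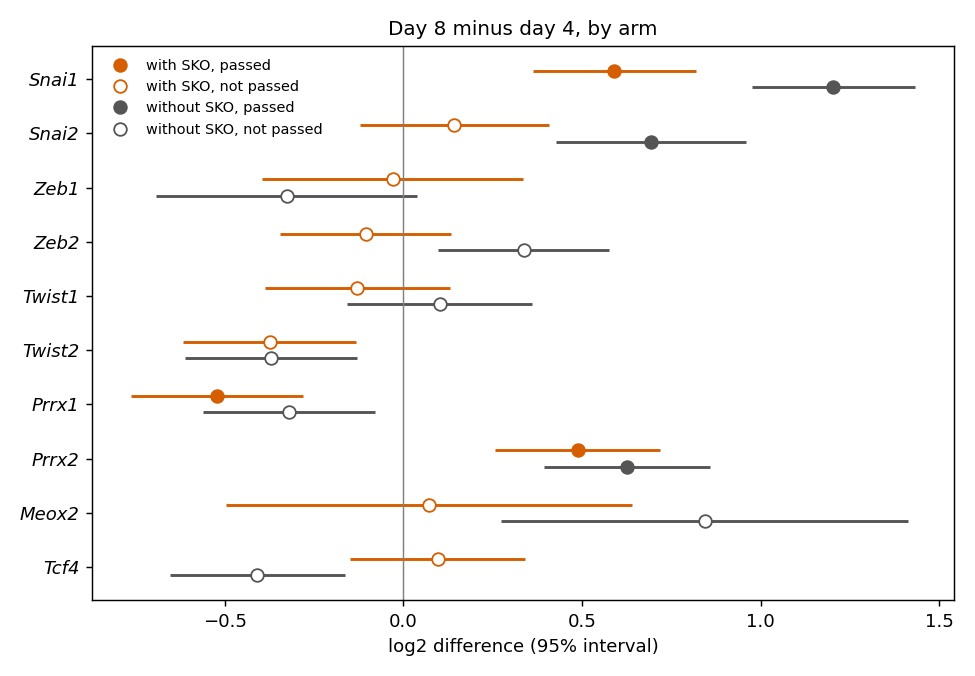
Log2 difference of day 8 minus day 4 for the 10 genes with SKO and without SKO, with 95% intervals from limma. Filled points passed an adjusted p of 0.05 and open points did not. Snai1 lies to the right of 0 in both arms (0.59 with SKO and 1.20 without SKO), and Prrx1 and Twist2 lie to the left in both.

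The third question was what the microRNA clusters changed. No member passed a limma adjusted p of 0.05 in any of the 8 cluster comparisons, where at most 0.0201% of all genes did (cluster C against blank virus, and against cluster B, with SKO; 0.0100% for cluster B against blank virus with SKO). In the same 8 comparisons 1 member, Snai2, had an unadjusted p under 0.05, in the comparison of the cluster C effect between the arms. In that comparison 1155 of all 19938 genes did. With SKO and cluster C, all 10 members lay below blank virus on average, with a median log2 difference of -0.22, against -0.01 over all genes. They ranged from Zeb1 at -0.43 (95% interval -0.87 to 0.02; limma adjusted p = 0.732) and Snai2 at -0.30 (-0.62 to 0.02) to Zeb2 at -0.10 (-0.40 to 0.19). Zeb1 with cluster C lay -0.73 from blank virus at day 4 and -0.12 at day 8, both with SKO, so most of its average came from 1 array. In the same comparison the 11 fibroblast markers all lay below 0 (median -0.33) and none passed, and their part in the members' values was not tested. Epithelial genes had a median of 0.29 and mesenchymal genes of -0.22, with none passed in either list. Without SKO, cluster C gave 6 members above and 4 below blank virus, with a median of 0.03.

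Cluster B with SKO gave 3 members above and 7 below blank virus, with a median of -0.02 and no difference beyond -0.13 (Twist1) and 0.25 (Meox2, 95% interval -0.45 to 0.94). Cluster C lay below cluster B for all 10 members with SKO, with a median of -0.20. The comparisons with blank virus share the blank arrays. Each of these averages rests on 2 arrays against 2.

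**Figure D5:**
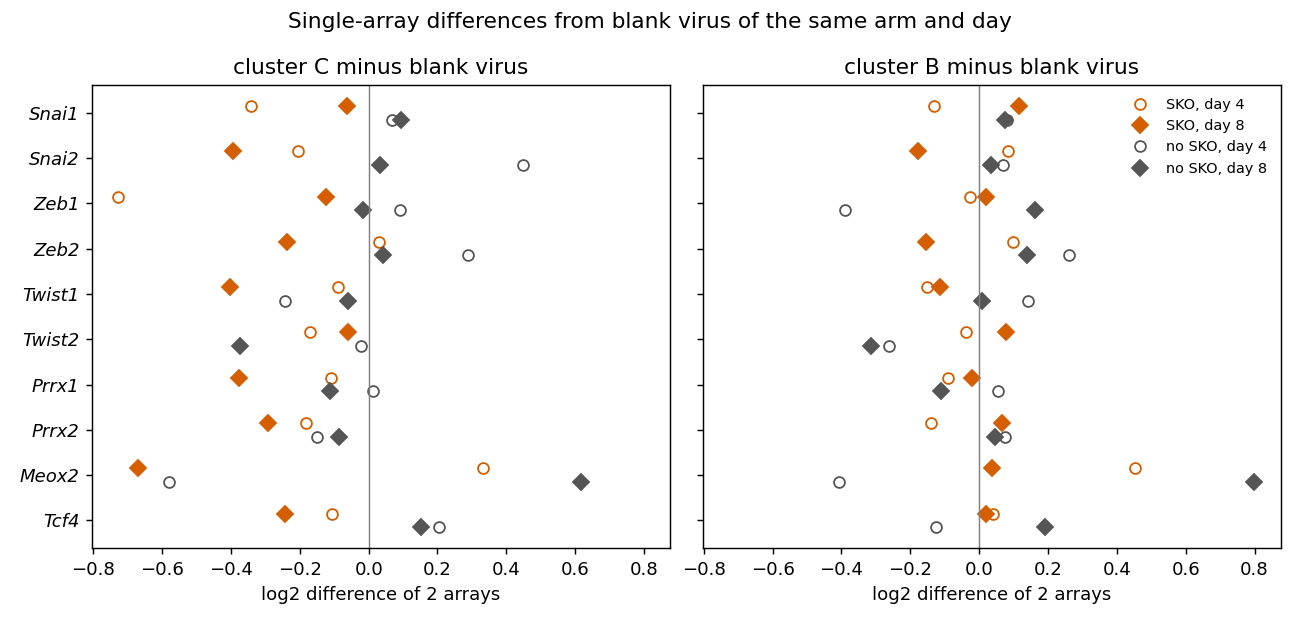
Log2 difference of cluster C (left) and cluster B (right) from blank virus of the same arm and day, for the 10 genes. Each point is a difference between 2 single arrays, so it has no error bar. With SKO and cluster C, points lie mostly left of 0, with Zeb1 at day 4 farthest left at -0.73, and the sign of Meox2 differs between days.

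For each member, the gene with the most similar profile over the 12 arrays was looked up among 9582 brighter protein-coding genes. Since SKO separates the arrays, the correlation within each arm (6 arrays) is given beside it, as a description. Prrx2 was most like Aspn, which encodes the matrix protein asporin (Pearson r = 0.99 with SKO and 0.96 without SKO). Snai1 was most like Plpp1 (0.95 with SKO and 0.99 without SKO) and Snai2 most like Ccn4, a secreted Wnt target (0.94 and 0.96). Zeb1 was most like Invs (0.94 with SKO and 0.99 without SKO), Twist2 most like Micos10 (0.91 and 0.92), Prrx1 most like Pcdh19 (0.98 and 0.91) and Tcf4 most like Elf1 (0.94 and 0.98). Meox2 was most like Tiparp, with r = 0.98 over all 12 arrays but 0.50 with SKO and 0.92 without SKO, and Zeb2 most like Rgs4 (0.42 with SKO and 0.97 without SKO). Twist1, which had the smallest SD of the 10 genes over the 12 arrays (0.15), was most like Avp, with r = 0.83 over all 12 arrays, the lowest of the 10 on that measure (0.77 with SKO and 0.83 without SKO).

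Within the group of 10, Snai1 and Prrx2 varied together in both arms (r = 0.95 with SKO and 0.97 without SKO), as did Twist2 and Prrx1 (0.94 and 0.84). Snai1 and Prrx1 ran opposite to each other (-0.76 with SKO and -0.97 without SKO). Prrx1 and Prrx2 also ran opposite (-0.61 with SKO and -0.93 without SKO). Several pairs had opposite signs in the arms. Among them were Tcf4 and Prrx2 (0.76 with SKO and -0.94 without SKO), Snai1 and Zeb2 (-0.52 and 0.88) and Zeb2 and Prrx1 (0.74 and -0.84). Differences between correlations of the arms were not tested. Each value rests on 6 arrays that span the same 2 days and 3 viruses.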

How the data were processed

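Per the labels' protocols, biotin-labelled cDNA from total RNA was put on Affymetrix arrays. The authors deposited log2 values for 12 arrays, made with RMA and Partek by the submitters' processing notes, which give no version. The genome build is not given in the sources used here. The deposited values span 0.92 to 14.03, and their log2 scale is inferred from this range. RMA equalises the arrays' distributions, which hides any shift common to most genes. The values carry no counts, and the number of arrays limits their precision.

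Of 28853 probe sets, 21789 had 1 gene in the platform annotation, 1621 several and 5443 none. The probe set with the highest mean was kept for each of 19938 genes. One limma fit (limma 3.58.1, R 4.3.3) over 12 arrays had 8 coefficients (SKO, day, virus and the interactions of SKO with both), 4 residual degrees of freedom and 4.94 prior ones. It was tested on simulated data. Each limma p-value judges a difference by SKO, day or virus against the spread left by terms not in the fit. With 1 array per combination, this spread mixes differences of virus effects between days with array noise. It is not a spread between replicates, and nothing says that arrays came from separate cultures. Benjamini-Hochberg adjustment ran over all genes in each of 13 comparisons, with a threshold of 0.05. Differences are on the log2 scale, and a fold is 2 to the power of such a difference. Upstream windows and microRNAs came from RefSeq tables on GRCm38.p6. Figures were drawn with Python 3.11.15, pandas 2.3.3 and matplotlib 3.10.9.

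The 10 members and all lists were chosen with earlier results of these data known. Named list genes are up to 3 highest and 3 lowest of each list, and each member's most alike gene is that with the highest Pearson correlation. Alternatives varied the model (arms fitted alone, no interaction of SKO with virus, a variance trend with robust estimation), the scaling (quantiles, equal medians), the genes tested (dim genes removed, probe sets averaged or all tested), the size of change required (1.5-fold) and the arrays used (each left out in turn). Some genes of these lists were not analysed here.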

Additional observations from a re-analysis of the deposited data

Results flagged for a closer look

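In 5 cases a member moved one way on every matched pair of arrays with SKO and the opposite way on every pair without SKO. The cluster C effect with SKO minus that without SKO was -0.282 for Snai1 (limma adjusted p = 0.879), -0.541 for Snai2 (adjusted p = 0.824) and -0.353 for Tcf4 (adjusted p = 0.867). The cluster B effect differed by -0.208 for Twist1 (limma adjusted p = 0.938). The day change differed by 0.504 for Tcf4 (limma adjusted p = 0.129). None of the 5 passed the interaction test. Of all genes, 13.5% had such opposite signs for cluster C and 13.7% for cluster B (2 pairs per arm), and 5.66% for day (3 pairs per arm).

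The day change with SKO minus that without SKO passed the interaction test (limma adjusted p under 0.05) for 11 named genes of the linked lists. It was positive for the junction genes Cdh1 (1.002), Dsp (0.673) and Epcam (2.475), the keratin gene Krt7 (1.942), the protease gene St14 (1.691), Mal2 (1.686) and the receptor gene Pdgfra (0.68). It was negative for the matrix genes Dcn (-0.967), Lum (-1.709) and Postn (-0.822) and for Mmp3 (-1.045). Mal2 was below the lower quartile on 8 of the 12 arrays, so the size of its value is uncertain.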

How the results depend on the processing

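The labels give no replicate numbers, so none was used as a block. Arrays were matched by virus, which is a term of the fit within each arm. No called member changed sign under any of the alternatives. Over the alternatives other than leaving out an array, 1062 of 1100 member values kept their side of the threshold, 17 lost and 21 gained a call, and 28 that were never called changed sign. When each array was left out, 1513 of 1560 kept their side, 45 lost and 2 gained a call, and 92 uncalled values changed sign. A minimum change of 1.5-fold, which is a stricter test by construction, left 1 of 6 members called for SKO at day 4, 4 of 9 at day 8, 0 of 3 for day with SKO and 1 of 3 for day without SKO. For day without SKO, 7 members passed with the trend and robust estimation, 7 with dim genes left out and 5 with equal array medians, in place of 3. For the difference in day change, 3 passed with the trend, 1 under quantile normalization and 1 with dim genes left out, in place of 0. Leaving out dim genes lowered the number of genes tested, and the fit was run anew on the genes left. The cause of these changes in count was not tested. Counts over all genes under the alternatives are not given here, so whether all genes gained or lost calls alike is not shown. Leaving out each array gave 5 to 6 called members for SKO at day 4, 5 to 9 at day 8 (5 without blank virus without SKO at day 8), 0 to 3 for day with SKO and 2 to 3 for day without SKO. The 8 cluster comparisons gave 0 called members under every alternative run. Another scaling moved the median of all genes by at most 0.05 (log2), with equal medians for day without SKO at -0.048. The dim microRNA probe sets, near or below the lower quartile, limit what can be said of them.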
